A study of Homo sapiens with 4 samples.

Results

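The miR-125, miR-99 and miR-100 family was taken as every array entry named for human miR-125a, miR-125b, miR-99a, miR-99b or miR-100, whichever arm or gene copy the name gives. This rule found 8 of the 1308 entries: both arms of miR-125a and miR-99b, the 5p arm of miR-125b with the 3p arms of its gene copies (miR-125b-1-3p and miR-125b-2-3p), and miR-99a-3p. The rule found no entry for miR-99a-5p or for either arm of miR-100 among the 1308, so these were not analysed here. Small RNA of exosomes, a kind of small vesicle shed by cells, was read on 4 microarrays of 1 colour (Cy5). The vesicles came from the medium of Hep3B cells, an established line from a human liver cancer, which had spent 2 days in medium without other exosomes. For 2 arrays the cells were given camptothecin at 10 µM, which traps topoisomerase I on DNA. For the other 2 the labels state no drug, although the column headers of the deposited ratios name DMSO. Hep3B is a single tumour line. Whether replicate arrays stem from separate cultures is not stated, so the p-values measure the spread between these arrays, which may be technical.

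A microRNA hairpin is cut into a short duplex with a 5p and a 3p strand. As a rule one strand is kept by an Argonaute protein as the guide, which finds messenger RNAs by its seed, the bases 2 to 8, and the other is mostly degraded. In this family the 5p strands are the usual guides. miR-125 is the vertebrate relative of lin-4, the first microRNA described, in Caenorhabditis elegans. The miR-99 and miR-100 guides are known to repress the growth kinase MTOR in human cells. The genes lie in clusters that each also hold a let-7 gene, and both let-7 and miR-125b are known for their part in development and for their loss in many hepatocellular carcinomas.

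The mature sequences show which members share a seed and how far they can be told apart, and are printed below as in RefSeq (GRCh38.p14), 5′ to 3′, with the seed in capitals. All 8 members matched by name.
miR-125a-5p: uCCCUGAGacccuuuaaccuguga
miR-125b-5p: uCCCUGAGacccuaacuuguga
miR-99b-5p: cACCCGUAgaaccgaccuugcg
miR-125a-3p: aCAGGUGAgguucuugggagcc
miR-125b-1-3p: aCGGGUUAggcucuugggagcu
miR-125b-2-3p: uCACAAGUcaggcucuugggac
miR-99a-3p: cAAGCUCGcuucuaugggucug
miR-99b-3p: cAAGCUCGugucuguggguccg
The 8 members carry 6 different seeds. miR-125a-5p and miR-125b-5p share theirs and are identical over their first 13 bases. miR-99a-3p and miR-99b-3p also share a seed and differ at 4 of 22 positions, counted from the 5′ end with the base of miR-99a-3p first (C9U, U10G, A14G and U21C). miR-125a-3p and miR-125b-1-3p likewise differ at 4 of 22 positions, with the base of miR-125a-3p first (A3G, G7U, U11C and C22U). miR-125b-1-3p and miR-125b-2-3p share a run of 12 bases. The 3p strands of miR-125 nonetheless have 3 different seeds. They hold a common run of 8 bases, ucuuggga, which starts at base 12 in miR-125a-3p and miR-125b-1-3p and at base 14 in miR-125b-2-3p. The degree to which the probes of such near copies bind each other's RNA is not given in the sources used here, so their values may not be fully separate.

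miR-99b and miR-125a come from 1 cluster on the plus strand of chromosome 19, inside the annotated spans of the protein-coding gene SPACA6 and the long non-coding RNA SPACA6-AS1. In GRCh38.p14 miR-99b-5p lies at chr19:51692618-51692639, miR-99b-3p at chr19:51692656-51692677, miR-125a-5p at chr19:51693268-51693291 and miR-125a-3p at chr19:51693306-51693327. miR-99a-3p (chr21:16539138-16539159) and miR-125b-2-3p (chr21:16590290-16590311) lie on the plus strand of chromosome 21 within the long non-coding host gene MIR99AHG. miR-125b-1-3p (chr11:122099769-122099790) lies on the minus strand of chromosome 11 within the long non-coding host gene MIR100HG. miR-125b-5p is the same molecule from both gene copies, at chr11:122099809-122099830 and chr21:16590253-16590274, so its single value cannot be divided between 2 loci.

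All 8 members were dim. Their intensities, in arbitrary units, ran from 111.9 to 194.9, while the lowest entry read 109 on each camptothecin array and 91.4 on each untreated array, and the median entry read 170.3 and 158.3. By mean log2 intensity over the 4 arrays the members lay between the 10.2 and 48.9 percentile of all entries, so 8 of 8 were below the median level. No background reading was used here, so how far these values stand above background is unknown. In exosomes as in other bulk samples, fewer vesicles carrying an RNA and less of it per vesicle cannot be told apart.

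The comparison of treated with untreated cells asked whether the exosomal level of each entry differed after the drug. As deposited, miR-99b-5p, miR-99b-3p, miR-99a-3p and miR-125a-3p rose, by 1.10-fold to 1.18-fold, while 46.3% of all entries passed the test, 35.1% as higher. miR-125a-5p, miR-125b-5p and both miR-125b 3p strands did not pass. With all 4 arrays quantile normalized together, 0 of the 8 members passed in limma. Among the 5p guides, miR-125b-5p read 160.9 and 194.9 on the camptothecin arrays and 151.2 and 147.0 on the untreated arrays. Both treated values were above both untreated values, but the treated pair spanned more than the distance from the lower treated value to the untreated ones. Its log2 fold change was 0.25 ± 0.092 SE (n = 2 arrays per group), the largest of the family as deposited, short of the threshold (limma, Benjamini-Hochberg adjusted p = 0.072).

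miR-125a-5p, with the same seed, read 145.1 and 173.8 after camptothecin and 152.1 and 158.9 without. The untreated values lay between the treated ones, so the groups overlapped. Its log2 fold change was 0.03 ± 0.089 SE (limma adjusted p = 0.789). miR-99b-5p, from the neighbouring hairpin and with the seed that marks the miR-99 and miR-100 guides, read 137.5 and 134.6 after camptothecin and 120.9 and 115.4 without. The groups did not overlap, and it rose by 1.15-fold (0.20 ± 0.050 SE on the log2 scale; limma adjusted p = 0.0244).

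Of the 3p strands, miR-99b-3p read 159.7 and 164.4 after camptothecin and 141.8 and 142.7 without. The groups stood clearly apart, and it rose by 1.14-fold (0.19 ± 0.041 SE on the log2 scale; limma adjusted p = 0.0189). miR-99a-3p, which shares its seed, read 139.9 and 134.6 against 120.5 and 111.9. It rose by 1.18-fold with no overlap (0.24 ± 0.057 SE on the log2 scale; limma adjusted p = 0.023), from the lowest level of the family.

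miR-125a-3p, the member with the highest mean log2 intensity over the 4 arrays, read 169.1 and 171.4 after camptothecin and 156.4 and 153.8 without. The groups did not overlap, and it rose by 1.10-fold (0.13 ± 0.040 SE on the log2 scale; limma adjusted p = 0.0404). This call was lost with the replicate number as a block (limma adjusted p = 0.0704) and with robust variance (limma adjusted p = 0.0544). miR-125b-1-3p read 146.9 and 176.7 against 149.5 and 148.3, with the untreated arrays between the treated ones (0.11 ± 0.089 SE on the log2 scale; limma adjusted p = 0.32). miR-125b-2-3p read 167.9 and 155.1 against 154.2 and 151.7. Its groups did not overlap by a narrow margin, and it did not pass (0.08 ± 0.053 SE on the log2 scale; limma adjusted p = 0.258).

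**Figure D1:**
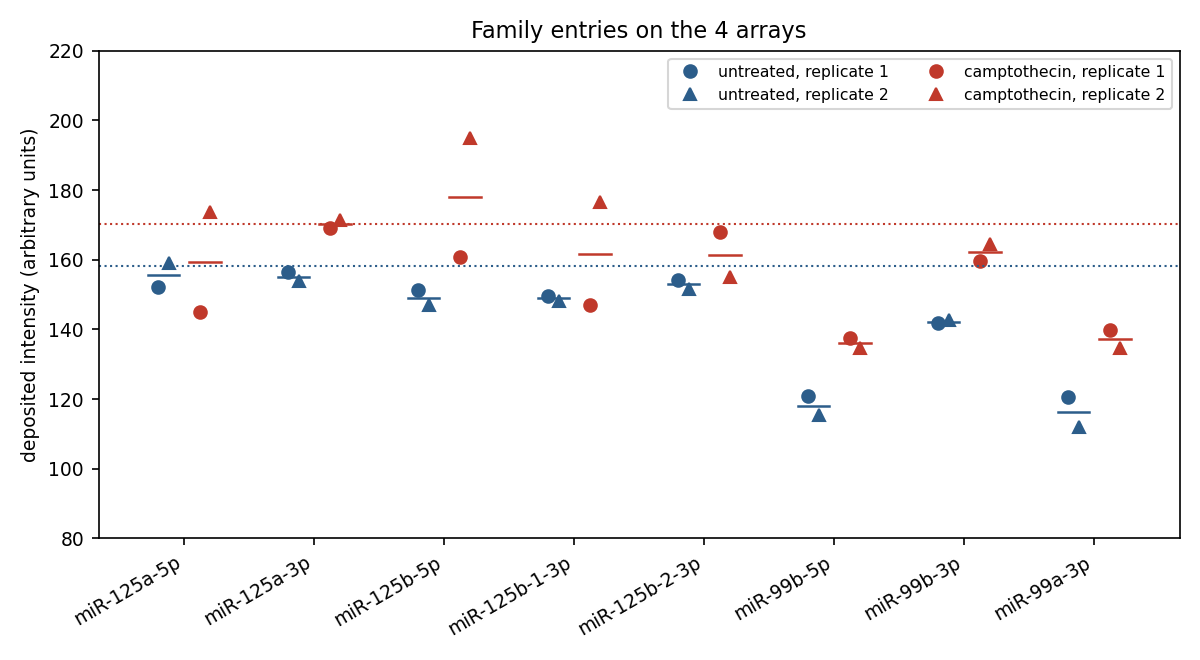
Deposited intensity (arbitrary units, linear axis from 80) of the 8 family entries on each array; circles and triangles are replicates 1 and 2, short bars the group means, and dotted lines the median of all entries in each group (170.3 with camptothecin, 158.3 without). miR-125b-5p, miR-125a-5p and miR-125b-1-3p were spread most between the camptothecin arrays, and miR-99b-5p and miR-99a-3p were the dimmest.

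As deposited, 4 of the 8 members rose and 0 fell (limma adjusted p under 0.05), while 5 had an unadjusted p under 0.05. Of all entries 459 were called higher and 147 (11.2%) lower, and among the 653 entries below the median level, where all members lie, 50.2% were called higher. Both treated arrays were above both untreated arrays for 6 of the 8 members, against 59.4% of all entries and 81.2% of those below the median level. The share of members that rose was thus near that of other dim entries. The members' median log2 fold change was 0.16, beside 0.11 over all entries and 0.17 over those below the median level.

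The calls on family members depended on how the arrays were scaled. With all 4 arrays quantile normalized together, 0 of 8 members also had an unadjusted p under 0.05, while 12.9% of all entries passed the adjusted threshold, 90 as higher and 79 as lower. The median log2 fold change of all entries moved from 0.11 to -0.0093. The log2 fold changes of the 4 members that rose became 0.0016 for miR-99b-5p, 0.066 for miR-99b-3p, 0.039 for miR-99a-3p and 0.023 for miR-125a-3p, with SEs of 0.041 to 0.057. miR-125a-5p (-0.096), miR-125b-2-3p (-0.041) and miR-125b-1-3p (-0.0097) turned negative, and miR-125b-5p kept the highest value of the family at 0.14 ± 0.097 SE (limma adjusted p = 0.388). With each array centred on its median (118 entries higher and 212 lower in all) and after normexp background correction (106 and 85), 0 of 8 members passed in limma, again with 0 at an unadjusted p under 0.05. With the 75th percentile taken over entries above the median level, in contrast, 6 of 8 members passed as higher, miR-125b-5p (0.37; limma adjusted p = 0.0134) and miR-125b-2-3p (0.20; limma adjusted p = 0.0159) in addition, while 68.2% of all entries were called higher (892, against 83 lower). With any 1 of the 4 arrays left out, 0 members passed in limma and 3 to 5 had an unadjusted p under 0.05, but such a fit called 1 to 71 of all entries and so could show little. The log2 fold changes of the 4 members that rose then ranged from 0.17 to 0.24 for miR-99b-5p, from 0.17 to 0.21 for miR-99b-3p, from 0.19 to 0.29 for miR-99a-3p and from 0.12 to 0.15 for miR-125a-3p.

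**Figure D2:**
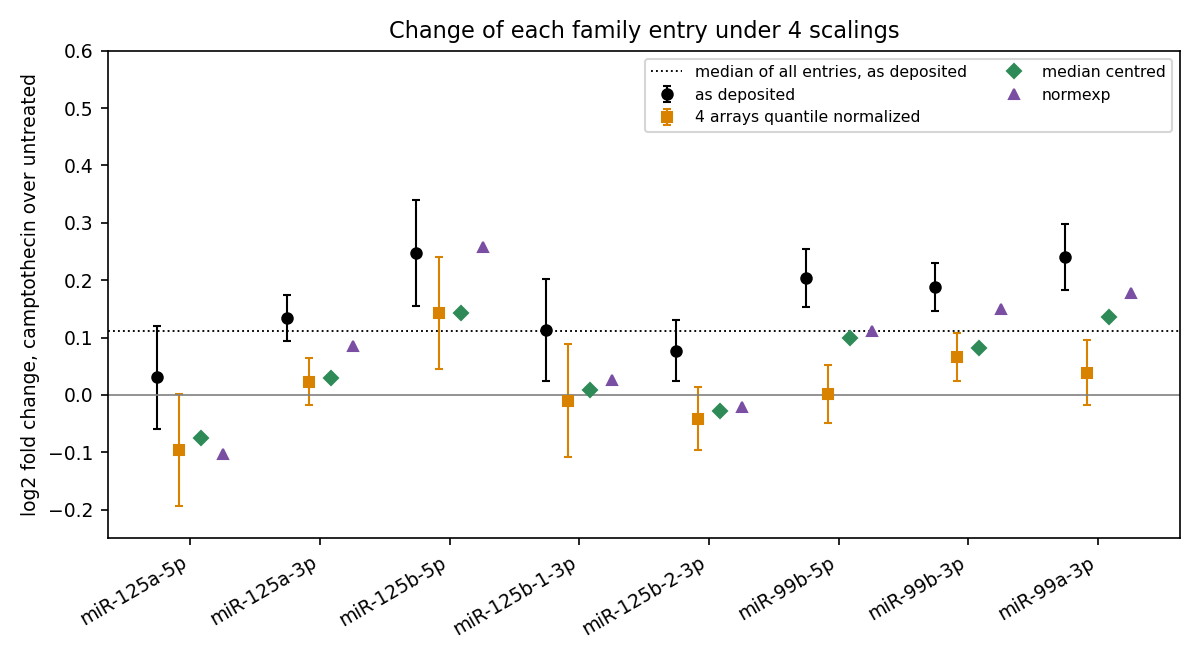
Log2 fold change, camptothecin over untreated, of the 8 family entries under 4 scalings of the arrays; bars are limma's SE for the values as deposited and for the 4 arrays quantile normalized together, and the dotted line is the median of all entries as deposited (0.11). Values as deposited lie above 0 for 8 of 8 entries and the quantile normalized values for 5 of 8.

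The rank of a member within its array does not change when an array is multiplied by a factor. miR-125b-5p ranked at the 43.4 and 61.2 percentile on the camptothecin arrays and at the 45.1 and 42.0 percentile on the untreated arrays. miR-125a-5p ranked at the 24.3 and 51.6 percentile against 46.2 and 50.3. In rank, both of these guides overlapped between the groups, and the camptothecin replicates were farther apart than the group means. miR-99b-3p ranked at the 42.2 and 46.2 percentile with the drug and at the 37.9 and 38.7 percentile without it, so its groups stayed apart. In rank the groups stayed apart for 2 of the 8 members, miR-99b-3p and by a narrow margin miR-125a-3p, both higher after the drug, against 27.1% of all entries in that direction. The median rank change over the 8 members was 0.83 percentile points.

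**Figure D3:**
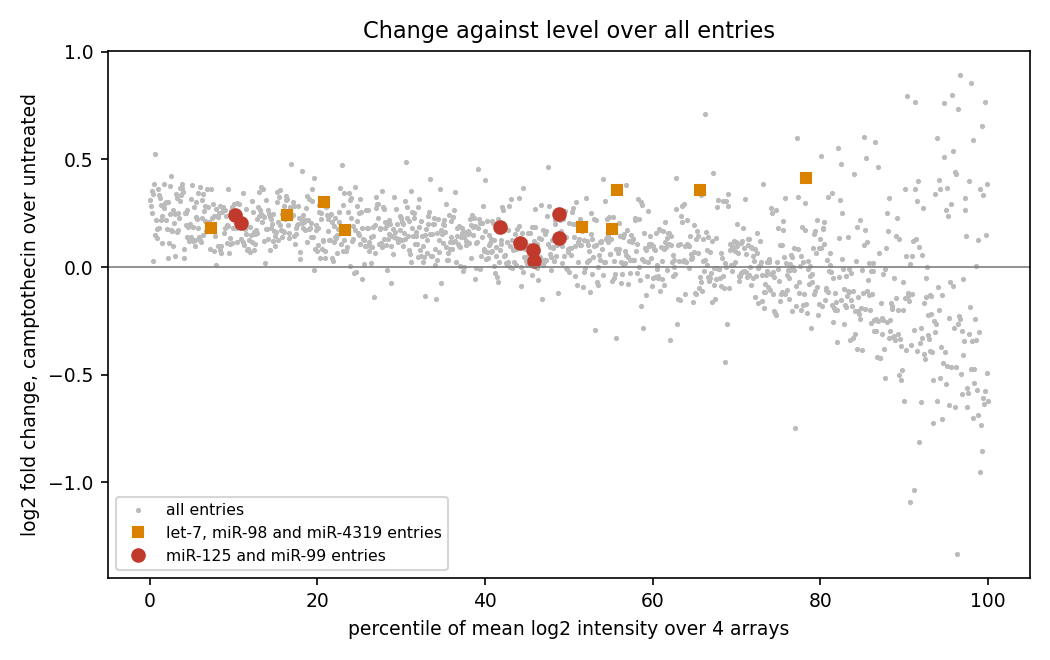
Log2 fold change as deposited against the percentile of mean log2 intensity for all 1308 entries (grey), with the miR-125 and miR-99 entries (circles) and the let-7, miR-98 and miR-4319 entries (squares). The family entries lie inside the band of other dim entries, most of which are above 0. miR-98-3p (0.36), let-7d-3p (0.36) and let-7b-3p (0.41) lie above every family entry, at higher levels. let-7f-1-3p (0.30) also lies above every family entry, at the 20.8 percentile of level, within the range of the family.

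The 2 camptothecin arrays gave different readings for 3 members. On the log2 scale camptothecin replicate 2 was above replicate 1 by 0.28 for miR-125b-5p, by 0.27 for miR-125b-1-3p and by 0.26 for miR-125a-5p. In size these differences lay at the 98.2, 97.6 and 97.1 percentile of all entries, whose differences had an SD of 0.11. Another member, miR-125b-2-3p, went the other way, by -0.12, and the remaining 4 differed by -0.055 to 0.042. Replicate 2 exceeded replicate 1 by at least the difference of miR-125a-5p in 27 entries and fell short by as much in 12. Between the untreated arrays the same 3 members differed by -0.041, -0.012 and 0.063.

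Without camptothecin replicate 2 the log2 fold changes of these members were 0.11 for miR-125b-5p, -0.02 for miR-125b-1-3p and -0.10 for miR-125a-5p. Without camptothecin replicate 1 they were 0.39, 0.25 and 0.16. The sign for miR-125a-5p and miR-125b-1-3p thus turned without camptothecin replicate 2, and that for miR-125a-5p also without untreated replicate 1 (-0.0012). Of the 3 blood cell microRNAs measured, camptothecin replicate 2 exceeded replicate 1 by 0.29 on the log2 scale for miR-150-5p, by 0.13 for miR-223-3p and by 0.061 for miR-486-5p. In size these lay at the 98.8, 81.9 and 46.9 percentile of all entries. Among the hepatocyte and stromal markers listed below, the same difference ran from -0.041 for miR-143-3p to 0.093 for miR-133a. The part of the blood cell microRNAs in the values of the members was not tested.

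**Figure D4:**
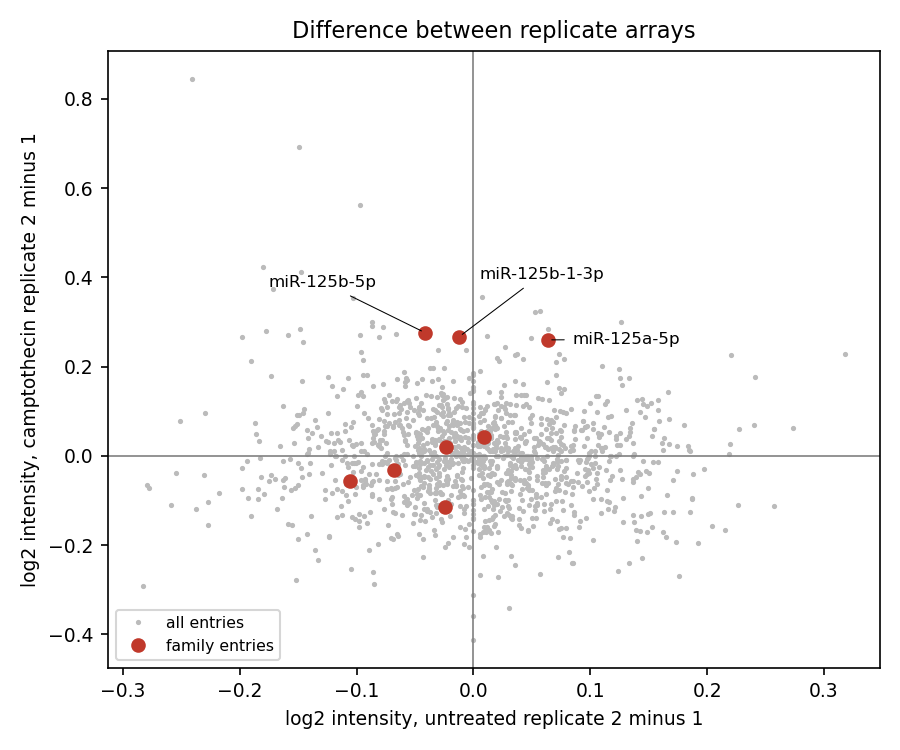
Difference in log2 intensity between the 2 camptothecin arrays (vertical) against that between the 2 untreated arrays (horizontal), for all 1308 entries (grey) and the 8 family entries (circles). miR-125b-5p, miR-125b-1-3p and miR-125a-5p lie near 0.27 on the vertical axis, and the other 5 family entries lie between -0.12 and 0.042.

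The arms of a hairpin were compared within each array, where a factor common to the array cancels. A probe's brightness depends on its own sequence, so the arm intensities are set side by side and do not say which strand was the more abundant. miR-99b-5p was dimmer than miR-99b-3p on all 4 arrays, with a log2 intensity difference of -0.22 and -0.29 after camptothecin and -0.23 and -0.31 without. The arms of miR-125a read alike on the untreated arrays (-0.04 and 0.05) and differed by -0.22 and 0.02 on the treated ones. miR-125b-5p exceeded miR-125b-1-3p by 0.13 and 0.14 after camptothecin and differed from it by 0.02 and -0.01 without. Against miR-125b-2-3p it stood at -0.06 and 0.33 after camptothecin and at -0.03 and -0.05 without.

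For none of the 4 pairs did the arms pass the test of a different change after camptothecin, and 0 had an unadjusted p under 0.05. Over the 245 pairs of arms on the array, 38.4% passed this test (limma on the difference between arms, Benjamini-Hochberg adjusted p under 0.05). That share was higher among bright pairs: 61 of the 86 with both arms at or above the median level passed when fitted alone. All arms of the family were below that level. The change of the 5p arm minus that of the 3p arm was 0.13 on the log2 scale for miR-125b-5p and miR-125b-1-3p (95% interval -0.03 to 0.29; limma adjusted p = 0.166), the pair whose groups did not overlap. It was 0.17 for miR-125b-5p and miR-125b-2-3p (-0.09 to 0.43; limma adjusted p = 0.27), a pair that shares its 5p value with the first. It was -0.10 for miR-125a (-0.31 to 0.10; limma adjusted p = 0.388) and 0.02 for miR-99b (-0.17 to 0.20; limma adjusted p = 0.887). Groups did not overlap in 71.0% of all pairs.

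1 pair changed its call when an array was left out. Without camptothecin replicate 1 the difference for miR-125b-5p and miR-125b-2-3p was 0.37 and passed (limma adjusted p = 0.0171), and without camptothecin replicate 2 it was -0.02 (limma adjusted p = 0.805). By arm, 1 of the 3 guides and 3 of the 5 3p strands rose as deposited, beside 35.1% of all entries and 50.2% of those below the median level. The largest difference between arms in the family, 0.17 in size, was close to the median of 0.18 over all pairs, and the others were 0.13, 0.10 and 0.02 in size. That median includes bright pairs, and no median was taken over dim pairs alone.

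**Figure D5:**
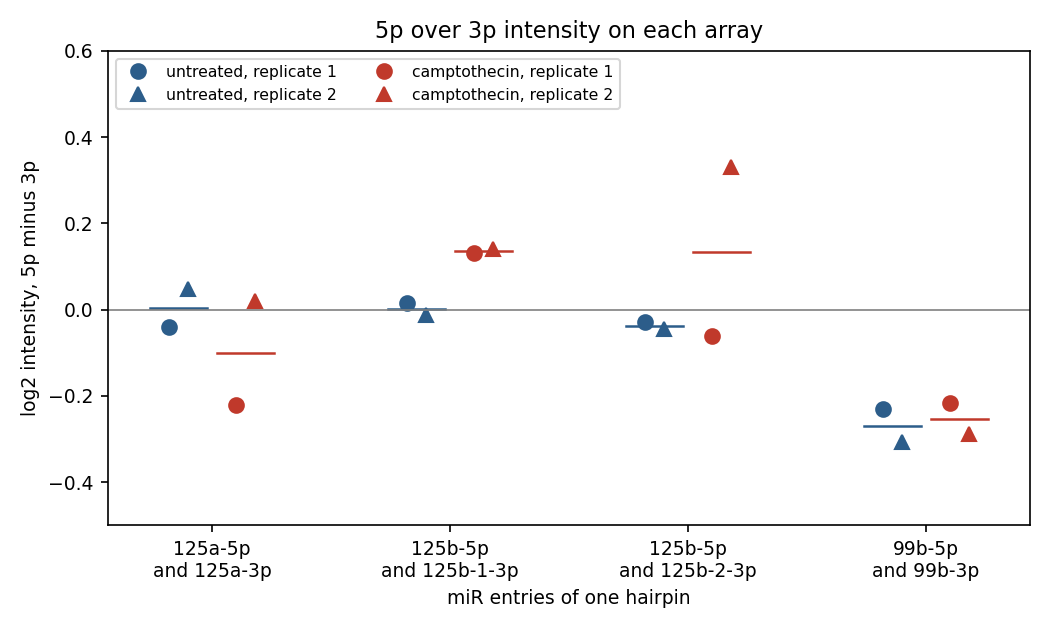
Log2 intensity of the 5p entry minus that of the 3p entry on each array for the 4 family pairs; circles and triangles are replicates 1 and 2 and short bars the group means. The miR-99b points lie between -0.31 and -0.22 in both groups, and the camptothecin replicates differ most for miR-125b-5p with miR-125b-2-3p (-0.06 and 0.33).

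Members of the same cluster did not all pass together. On chromosome 19 both miR-99b strands and miR-125a-3p rose as deposited, and miR-125a-5p was at 0.03. let-7e-3p, encoded between the hairpins, stood at 0.18 ± 0.061 SE on the log2 scale, short of the threshold (limma adjusted p = 0.0565). On chromosome 21 miR-99a-3p rose and miR-125b-2-3p did not pass. On chromosome 11 the let-7 strand of the cluster, let-7a-2-3p, rose by 0.24 ± 0.056 SE on the log2 scale (limma adjusted p = 0.0218), while miR-125b-1-3p did not pass. With the 4 arrays quantile normalized together, 0 of the 8 members and neither of these let-7 strands passed.

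The relatives of the family were listed as any let-7, miR-98, miR-10a or miR-10b entry and miR-4319, and 9 were measured: 7 let-7 3p strands, miR-98-3p and miR-4319. Of these, 7 rose and 0 fell as deposited, with a median log2 fold change of 0.24 over the 9. Of all entries 35.1% were called higher, and of those below the median level 50.2%. The 9 relatives lay between the 7.26 and 78.4 percentile of level, so not all of them were dim. let-7f-1-3p (0.30), let-7a-3p (0.18) and let-7g-3p (0.17) were among those that rose and did not pass with the 4 arrays quantile normalized together. miR-4319 is the only entry outside the family, among the 1105 with a RefSeq sequence of the same name, that carries the seed of a member, the one of miR-125a-5p and miR-125b-5p. It read 189.6 and 166.8 after camptothecin and 164.5 and 148.3 in untreated cells, and the difference did not pass (0.19 ± 0.081 SE on the log2 scale; limma adjusted p = 0.106). Unlike the family's own calls, those of 3 relatives held with the 4 arrays quantile normalized together: let-7b-3p (0.41; limma adjusted p = 0.00925), let-7d-3p (0.27; limma adjusted p = 0.0132) and miR-98-3p (0.30; limma adjusted p = 0.0236). Of all entries 12.9% passed under that normalization, 90 as higher and 79 as lower. By mean log2 intensity over the 4 arrays, these 3 relatives were brighter than every member. On the untreated arrays, however, let-7d-3p read 155.9 on both, below miR-125a-3p on replicate 1 (156.4) and miR-125a-5p on replicate 2 (158.9). The difference between the 3 relatives and the members was not tested.

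The pattern of miR-125a-3p, the member with the highest mean log2 intensity, was closest to those of miR-4999-5p, miR-152 and miR-196a-5p. Likeness was measured as the distance between log2 values over the 4 arrays, each entry centred on its own mean, and was 0.013, 0.015 and 0.017. miR-152 and miR-196a-5p lay at the 4.43 and 0.612 percentile of level, near the lowest entries. The log2 fold changes were 0.13, 0.14 and 0.15 as deposited, beside a median of 0.11 over all entries and 0.17 over those below the median level. With the 4 arrays quantile normalized together none of them passed (limma adjusted p = 0.801, 0.363 and 0.271).

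Markers of hepatocytes, the cells Hep3B derives from, were dim as well. The 4 hepatocyte microRNAs listed lay between the 3.82 and 37.5 percentile of level, and 4 of 4 were called higher, with summed intensities of 609 to 611 after camptothecin and 503 to 524 without. Of 5 blood microRNAs listed, 3 were measured and 1 was called higher, with sums of 598 to 665 and 580 to 582. Of 7 microRNAs of muscle, fibroblasts and stroma, tissues in which miR-125b and miR-99a are strong, 7 were measured, 4 were called higher and 1 lower, with sums of 1896 to 1909 and 1675 to 1722. With the 4 arrays quantile normalized together, 0 of the 4 hepatocyte, 0 of the 3 blood and 3 of the 7 stromal markers passed in limma, the 3 as higher. Over the whole array 12.9% of entries passed under that normalization, 90 as higher and 79 as lower. As deposited, 35.1% of all entries and 50.2% of those below the median level were called higher. The blood list reached the 76.8 percentile of level and the stromal list the 89.9 percentile, so not all of these markers were dim. The lowest of all entries read 109 on each camptothecin array and 91.4 on each untreated array. A reading above 0 therefore does not show that a marker was present. The part of these markers in the values of the miR-125 and miR-99 entries was not tested.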

How the data were processed

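The authors deposited 1 linear intensity per entry and array, in arbitrary units. Per the labels' protocols, the small RNA was amplified after reverse transcription and labelled with Cy5. The sources used here do not give the scanner, background correction or normalization. The 2 arrays of each group hold the same 1308 sorted values, and all 4 share the 75th percentile of 250.2, as quantile normalization within groups and a common scale would give. Such a step would make replicates more alike, and p-values then come out too small. The log2 ratios of the authors' deposited table equal differences of these values within 5e-10, and that table served for names. Its 4 columns of single-array values were not used.

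Values were taken as log2 intensity with no pseudocount and fitted over all 1308 entries in limma 3.58.1 (R 4.3.3; lmFit, then eBayes with an intensity trend), two-sided, Benjamini-Hochberg adjusted over all entries, threshold 0.05. Arms were compared by the same fit to log2(5p) minus log2(3p) over 245 pairs whose names differ in the arm or also in a copy number. An exact permutation test of 2 against 2 arrays cannot go below p = 0.333. Precision is limited by the number of arrays. The code was tested on simulated data. Sequences and positions are from RefSeq (GRCh38.p14), matched by name; the array's own build is not given. Replicate numbers were not taken as pairs: same-numbered arrays deviated with a correlation of -0.0717 across entries. All members and relatives were named, with the 3 entries most like the member of highest mean log2 intensity. The members and lists were chosen with earlier results of these data known. Alternatives were other scalings, normexp (offset 50), pseudocounts, a filter on dim entries, other variance models, a replicate block, and each array left out.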

Additional observations from a re-analysis of the deposited data

How the results depend on the processing

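The 4 calls among the 8 family entries became 0 with all 4 arrays quantile normalized together, 0 after centring each array on its median, 0 after normexp correction and 6 with the 75th percentile over entries above the median level; the cause was not tested. With any 1 array left out it was 0, in fits that called few entries at all, while the log2 fold changes of the 4 called members kept their sign and stayed between 0.12 and 0.29. The filter on dim entries left no member to test. The members' median log2 fold change of 0.16 became 0.012 under quantile normalization, 0.29 with the 75th percentile over entries above the median level and 0.056 with centring. The count of family pairs of arms past the test stayed at 0 except with 1 array left out, where it was 0 to 1. Over all entries, 606 calls became 169 under quantile normalization, 975 with the other 75th percentile, 330 with centring, 191 after normexp and 267 with dim entries filtered out (654 tested), and 1 to 71 with 1 array left out. Of all pairs, 94 passed, and 61 of the 86 left by the filter. With the replicate number as a block, 3 family entries, 550 entries in all, 0 family pairs and 85 pairs in all passed, and miR-125a-3p was the family call it changed.

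Signs turned as follows. Under quantile normalization, miR-125a-5p was at -0.096, miR-125b-1-3p at -0.0097 and miR-125b-2-3p at -0.041. With centring, miR-125a-5p was at -0.075 and miR-125b-2-3p at -0.028, and after normexp at -0.10 and -0.0202. With 1 array left out, miR-125a-5p ranged from -0.10 to 0.16 and miR-125b-1-3p from -0.0197 to 0.25. The difference between arms in change was -0.065 for miR-99b under quantile normalization and -0.039 after normexp. With 1 array left out it ranged from -0.022 to 0.054 for miR-99b, from -0.22 to 0.016 for miR-125a and from -0.025 to 0.37 for miR-125b-5p with miR-125b-2-3p. Of the 156 comparisons of a single entry or pair with an alternative, 107 kept their sign and their side of the threshold. The members' height above background is unknown, which limits what their small changes can show. A group left with 1 array was assumed to vary like the other group.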
